A study of Mus musculus with 33 samples.

Results

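The Dlk1-Meg3-Dio3 cluster is a group of imprinted genes on mouse chromosome 12, and its genes were followed here in the tongue and in sorted rib cartilage cells of mice with biallelic or ordinary, imprinted expression of Zac1 (gene symbol Plagl1), a zinc finger transcription factor. The cluster was taken by gene name from the deposited tables. Of 6 names (Dlk1, Meg3, Rian, Mirg, Rtl1 and Dio3), 4 have a row in every table, out of 27825 rows in each tongue table and 25965 rows in the chondrocyte table. Rian and Mirg have no row of their own name and are not analysed here as genes. The small RNA rows that lie inside them are described instead.

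Biallelic animals were labelled as Zac1o knockout mice, which express Zac1 biallelically, and were set against wild type animals. Tongues were taken before birth (E13.5), at birth (P0) and around weaning (P20), with 3 biallelic and 3 wild type libraries for each stage. Costal chondrocytes of E18.5 ribcages came from 6 biallelic and 5 wild type animals, from small pools of cells sorted for Cd24a and Cd200. The sources used here do not give strain, sex or litter, and the reads of both parental alleles are summed, so allele-specific expression was not analysed here.

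The cluster is a textbook example of genomic imprinting. Dlk1, Rtl1 and Dio3 encode proteins and are expressed from the paternal chromosome, while Meg3, Rian and Mirg are long noncoding RNAs expressed from the maternal chromosome. A differentially methylated region upstream of Meg3 controls the whole domain. The maternal transcripts also carry many box C/D small nucleolar RNAs, inside Rian, and one of the largest groups of microRNAs in the mouse genome, around Rtl1 and between Rian and Mirg. Delta-like 1 homologue, the product of Dlk1, resembles Notch ligands and restrains adipocyte differentiation. Rtl1 derives from a retrotransposon and is needed in placenta and fetal muscle. Dio3 is the deiodinase that inactivates thyroid hormone.

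In the coordinates of the files (GRCm38, chromosome 12), Dlk1 (ENSMUSG00000040856) lies on the plus strand at chr12:109452823-109463336 and Meg3 (ENSMUSG00000021268) on the plus strand at chr12:109541001-109571726. Rtl1 (ENSMUSG00000085925) lies on the minus strand at chr12:109589194-109600330 and Dio3 (ENSMUSG00000075707) on the plus strand at chr12:110279068-110281097. RefSeq places Rian at chr12:109603945-109661716 and Mirg at chr12:109734981-109749458, both between Rtl1 and Dio3. The maternal transcript opposite Rtl1 runs antisense to it. The sources used here do not give the strand setting of the read counting. In the strand-specific tongue libraries, the minus strand small RNA rows AC121784.1 to AC121784.4 had 0 reads at P0. Near AC121784.1 and AC121784.4 on the plus strand, the hairpin rows Mir412 and Mir411 had 33 to 77 and 9 to 24 reads at P0. Whether the Rtl1 row holds reads of both strands was not tested.

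The RefSeq promoter windows of Meg3 and Dio3 (GRCm38.p6) are printed because these genes took opposite courses around birth. Capitals mark matches on either strand to TATAAA (the TATA box), CCAAT (the CCAAT box) and TGACGTCA (the cyclic AMP response element). Both windows are written 5′ to 3′ on the plus strand, at chr12:109540746-109541045 for the upstream of 2 Meg3 starts in RefSeq and at chr12:110278980-110279279 for Dio3.
Meg3 promoter: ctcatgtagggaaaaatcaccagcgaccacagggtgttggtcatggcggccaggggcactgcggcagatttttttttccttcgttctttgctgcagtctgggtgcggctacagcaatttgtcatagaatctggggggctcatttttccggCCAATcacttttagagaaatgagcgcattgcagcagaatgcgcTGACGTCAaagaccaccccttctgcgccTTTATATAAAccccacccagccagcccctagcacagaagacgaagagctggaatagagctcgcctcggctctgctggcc
Dio3 promoter: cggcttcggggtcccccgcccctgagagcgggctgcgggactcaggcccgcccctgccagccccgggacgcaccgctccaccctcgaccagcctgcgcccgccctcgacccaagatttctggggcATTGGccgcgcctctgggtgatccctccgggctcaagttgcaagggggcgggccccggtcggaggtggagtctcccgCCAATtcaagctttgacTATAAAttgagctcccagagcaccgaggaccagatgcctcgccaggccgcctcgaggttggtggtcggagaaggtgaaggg
The Meg3 window holds 1 CCAAT match, 1 TGACGTCA match and 2 TATAAA matches that overlap each other on opposite strands. The Dio3 window holds 2 CCAAT matches, 1 on each strand, and 1 TATAAA match. Among 32851 RefSeq promoter windows of the same length, 37.4% hold CCAAT, 13.6% hold TATAAA and 1.79% hold TGACGTCA on either strand. The Dlk1 window held none of these letters. GGGGCCCC, a palindrome reported to be bound by PLAGL1, was found in none of the 3 windows and in 1.08% of all windows. The Dio3 window has a GC content of 69.0% and 25 CpG dinucleotides, against 53.7% and 13 in the Meg3 window and a median of 52.7% and 7 over all windows.

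The small RNAs of the maternal transcripts are represented by the SNORD113 row with the most reads, which GENCODE names Gm24895, and by microRNAs of 4 of the 6 hairpin rows named below by their level, the 4 with a seed that recurs in another hairpin of the cluster. The small nucleolar RNA lies inside Rian at chr12:109646129-109646202 on the plus strand and is written as DNA, with its C box and D box letters in capitals.
Gm24895: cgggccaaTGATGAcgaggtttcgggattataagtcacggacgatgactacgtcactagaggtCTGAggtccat
The microRNAs are given as RefSeq mature sequences with the seed (bases 2 to 8) in capitals, each row's microRNA with a second one of the cluster that shares its seed. In all, 47 of 48 rows named as microRNA hairpins matched RefSeq by symbol. Over the whole interval from Dlk1 to Dio3, hairpins without a row included, RefSeq lists 113 mature names with 104 different seeds, of which 9 were shared by more than 1 name.
mmu-miR-453: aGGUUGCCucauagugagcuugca
mmu-miR-496a-5p: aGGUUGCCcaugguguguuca
mmu-miR-1197-5p: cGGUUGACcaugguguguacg
mmu-miR-758-5p: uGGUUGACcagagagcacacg
mmu-miR-3070-2-3p: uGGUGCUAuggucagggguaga
mmu-miR-3070-3p: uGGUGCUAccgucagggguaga
mmu-miR-410-5p: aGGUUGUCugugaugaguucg
mmu-miR-494-5p: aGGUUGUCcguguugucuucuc
The hairpin rows are Mir453 at chr12:109735619-109735700, Mir1197 at chr12:109712317-109712436, AC152063.2 (Mir3070b in GENCODE) at chr12:109588592-109588680 and Mir410 at chr12:109743715-109743795. Each pair shares its seed and differs after it. Total RNA libraries were counted over hairpins, so the values below are not levels of mature microRNAs.

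Values are RPM, read counts scaled to the library's read total, and are not corrected for gene length. The totals behind RPM ran from 36832717 to 52425994 reads at E13.5, from 48336734 to 92249098 reads at P0 and from 45370175 to 58251242 reads at P20, and in chondrocytes from 2938462 to 15689559 reads. A count of 3 reads stands for 0.0325 to 0.0814 RPM in tongues and 0.191 to 1.02 RPM in chondrocytes. Differences are log2 values of biallelic minus wild type, or of the later minus the earlier stage, from limma with Benjamini-Hochberg adjustment over all genes tested, and a gene is called at an adjusted p under 0.05.

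Plagl1, the gene that differs between the genotypes, was higher in every biallelic than in every wild type library of all 4 tables. It had 157 to 275 RPM in biallelic and 66.1 to 104.9 RPM in wild type tongues at E13.5, 429.6 to 499 and 221 to 243 RPM at P0, 50.9 to 77.1 and 23.1 to 30.5 RPM at P20, and 17.5 to 50.0 and 3.18 to 15.3 RPM in chondrocytes. Its log2 difference averaged over the tongue stages was 1.18 (SE 0.12, adjusted p = 0.000161). Within 1 table it was called at P0 (1.03, adjusted p = 0.0469). That call was lost with median centring, without the filter on low values, with voom and with a replicate block. It was also lost on leaving out any 1 of the P0 libraries other than biallelic library 1. Its call without biallelic library 1 is not given here.

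Some libraries stood apart. Biallelic library 3 at E13.5 and biallelic library 3 at P20 lay farthest from the other libraries of their stage on the first principal component, at scores of 47.5 and 39.8. Summed levels of genes of hypoxia and glycolysis were 1339 RPM in that E13.5 library, against 290.2 and 298 RPM in the other biallelic and 262 to 294 RPM in the wild type libraries. In the same library fibroblast markers summed to 1102 RPM, against 429 and 559.6 RPM in the other biallelic and 383 to 636 RPM in the wild type libraries. In that P20 library hypoxia and glycolysis genes summed to 1445 RPM, against 847 and 1004 RPM in the other biallelic and 779 to 1218 RPM in the wild type libraries, and adipocyte markers to 47.0 RPM, against 23.8 and 22 RPM in the other biallelic and 19.3 to 22.7 RPM in the wild type libraries. Both libraries were the highest of their stage for Dlk1, Rtl1 and Dio3. Endothelial markers stood apart in both, at 68.6 RPM at E13.5, against 18.7 and 28.8 RPM in the other biallelic and 21.4 to 39.6 RPM in the wild type libraries, and at 313 RPM at P20, against 185 and 194 RPM in the other biallelic and 163 to 199 RPM in the wild type libraries. Of the 6 adipocyte markers, up to 5 had 0 reads in a single biallelic library of P20 and up to 2 in a wild type one. The adipocyte sums may therefore rest on few genes. The part of all these marker sums in the results was not tested.

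Dlk1 was abundant before birth, highest at birth and nearly gone by weaning. At E13.5 it had 69.1, 69.9 and 155.7 RPM in biallelic tongues and 74.9, 99.1 and 82.8 RPM in wild type tongues. At P0 it had 285, 244 and 289.5 RPM in biallelic tongues and 226, 246 and 211 RPM in wild type tongues. At P20 it had 5.84, 3.78 and 10.6 RPM in biallelic tongues and 1.55, 1.82 and 1.68 RPM in wild type tongues. The P0 libraries of both genotypes were all above the E13.5 libraries, and the P20 libraries were all below them.

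Meg3 reached the highest RPM of the 4 genes. At E13.5 it had 75.3, 115 and 111 RPM in biallelic tongues and 39.5, 156.7 and 93.5 RPM in wild type tongues. At P0 it had 1400.4, 1429 and 1367 RPM in biallelic tongues and 1203, 1499 and 1267 RPM in wild type tongues. At P20 it had 99.2, 73.8 and 132 RPM in biallelic tongues and 57.4, 71.9 and 62.4 RPM in wild type tongues. Each P20 value of Meg3 lay within the range of the 6 E13.5 libraries, whereas each P20 value of Dlk1 lay far below its E13.5 values.

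Rtl1 was low at E13.5, highest at P0 and close to silent at P20. It had 2.86, 3.04 and 5.46 RPM in biallelic and 1.76, 2.63 and 3.21 RPM in wild type tongues at E13.5. It had 94.8, 93.6 and 88.7 RPM in biallelic and 87.1, 119.6 and 69.6 RPM in wild type tongues at P0. At P20 it was down to 11, 11 and 48 reads in biallelic and 7, 9 and 9 reads in wild type tongues, which is under 1 RPM in each library.

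Dio3, at the far end of the cluster, ran the other way between E13.5 and P0. It had 3.23, 5.51 and 15.4 RPM in biallelic and 4.22, 4.81 and 2.62 RPM in wild type tongues at E13.5. It had 1.45, 1.44 and 1.10 RPM in biallelic and 2.0, 1.17 and 1.73 RPM in wild type tongues at P0. At P20 it had 10, 11 and 103 reads in biallelic and 17, 20 and 7 reads in wild type tongues. Each E13.5 library was above each P0 library in both genotypes, and biallelic library 3 had the most reads of its stage at E13.5 and at P20.

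**Figure D1:**
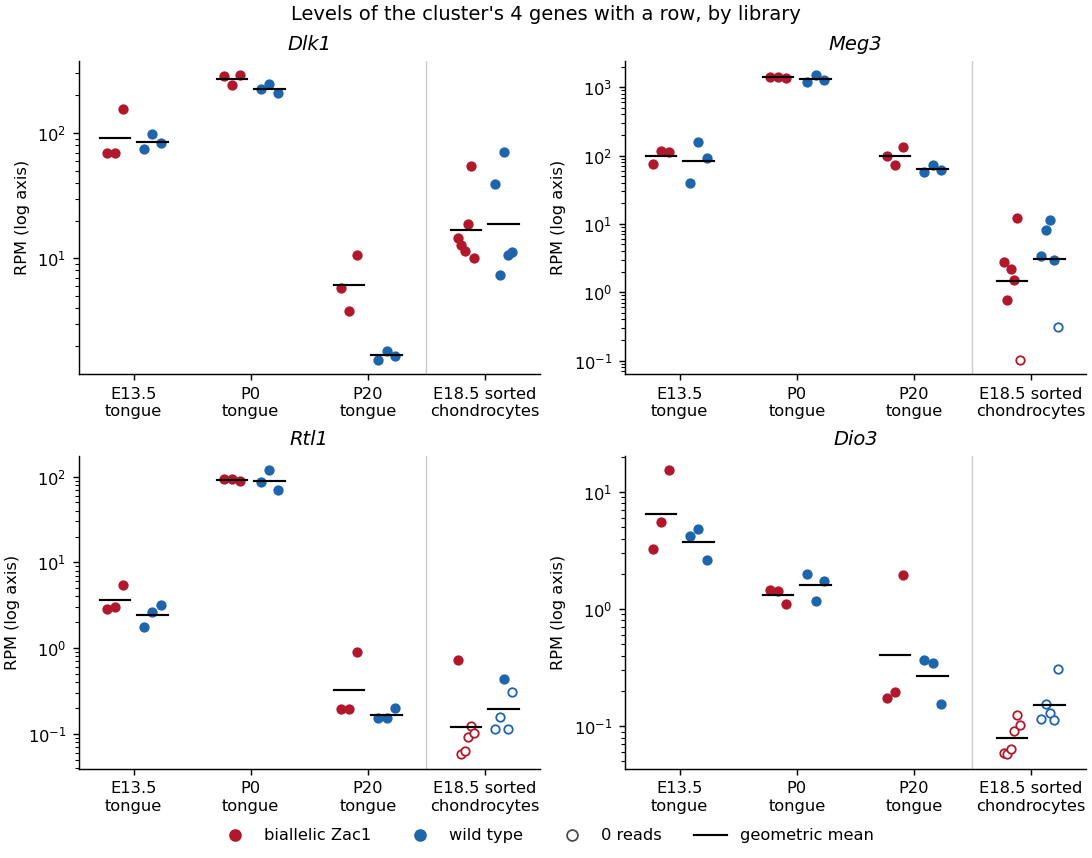
Level of Dlk1, Meg3, Rtl1 and Dio3 in each library (RPM, log axis), with biallelic libraries left of wild type ones, a line at the geometric mean and open circles for 0 reads. Dlk1, Meg3 and Rtl1 peak at P0, Meg3 at 1203 to 1499 RPM, while Dio3 is highest at E13.5 and all 11 chondrocyte animals have 0 reads of it.

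The stage contrasts were fitted over all 18 tongue libraries and 13663 genes. From E13.5 to P0, 3 of the 4 genes rose in both genotypes. The share of all genes called higher was 39.7% in biallelic and 37.9% in wild type tongues, and the share called lower was 37.6% in biallelic and 39.9% in wild type tongues. A call in this step is therefore common among all genes, and the sizes say more than the calls. Dlk1 rose by 1.58 in biallelic tongues (SE 0.31, adjusted p = 0.000177) and by 1.42 in wild type tongues (adjusted p = 0.000485). Meg3 rose by 3.82 in biallelic tongues (SE 0.34, adjusted p = 3.07e-08) and by 3.98 in wild type tongues (adjusted p = 1.86e-08). Rtl1 rose by 4.67 in biallelic tongues (SE 0.45, adjusted p = 7.30e-08) and by 5.19 in wild type tongues (adjusted p = 2.05e-08). The median change over all genes was 0.05 in biallelic and -0.04 in wild type tongues, or 0.14 and 0.15 after median centring. RNA was extracted with another kit at E13.5 than at P0 and P20, so this stage step and the extraction cannot be told apart.

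Dio3 was called lower at P0 than at E13.5 in biallelic tongues, at -2.30 (SE 0.72, adjusted p = 0.00842), and had -1.24 in wild type tongues (adjusted p = 0.128). Without biallelic library 3 of E13.5 the biallelic value was -1.68 (adjusted p = 0.0549). The wild type value was called with log2(RPM + 1), at -0.87 (adjusted p = 0.0460), with voom, at -1.24 (adjusted p = 0.0497), and without biallelic library 3 of P20, at -1.24 (adjusted p = 0.0257). The difference between the genotypes in this step was -1.06 (SE 1.02, adjusted p = 0.938).

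From P0 to P20 Dlk1, Meg3 and Rtl1 fell in both genotypes. The share of all genes called lower in this step was 17.3% in biallelic and 14.9% in wild type tongues, and the share called higher was 29.9% in biallelic and 31.7% in wild type tongues. This split depended on the scaling: 4088 genes were called higher and 2358 lower in biallelic tongues, or 2889 and 3480 after median centring, and 4332 higher and 2034 lower in wild type tongues, or 2794 and 3165 after median centring. The median change over all genes was 0.18 in biallelic and 0.22 in wild type tongues, or -0.02 and -0.00 after that centring. Dlk1 fell by 5.46 in biallelic tongues (SE 0.31, adjusted p = 2.45e-09) and fell by 7.08 in wild type tongues (adjusted p = 2.72e-10). Meg3 fell by 3.82 in biallelic tongues (SE 0.34, adjusted p = 3.93e-07) and fell by 4.37 in wild type tongues (adjusted p = 1.15e-07). Rtl1 fell by 8.16 in biallelic tongues (SE 0.45, adjusted p = 2.09e-09) and fell by 9.07 in wild type tongues (adjusted p = 8.86e-10). These steps are many times larger than the shift between scalings.

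Dio3 was called lower at P20 than at P0 in wild type tongues, at -2.56 (SE 0.72, adjusted p = 0.00869), and this missed the threshold with voom, at -2.49 (adjusted p = 0.0537). In biallelic tongues it had -1.71 (adjusted p = 0.0628). Without biallelic library 3 of P20 the biallelic value was -2.84 (adjusted p = 0.000538), with median centring it was -1.90 (adjusted p = 0.0429), and without biallelic library 3 of E13.5 it was -1.71 (adjusted p = 0.0462). Rtl1 and Dio3 entered this fit through their E13.5 and P0 libraries, since nearly all of their P20 libraries are under 1 RPM, so a fall to P20 was partly built into passing the filter.

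The sizes of the swings differed between the genes. Mean Meg3 at P0 was 13.9 times its E13.5 mean in biallelic and 13.7 times in wild type tongues. The same ratio was 2.78 and 2.66 for Dlk1 and 24.4 and 36.3 for Rtl1. Mean Dlk1 at P0 was 40.5 times its P20 mean in biallelic and 135 times in wild type tongues, against 13.7 and 20.7 for Meg3. For Rtl1 that ratio was 214 and 547, over P20 means that rest on a few reads. Without biallelic library 3 of P20 the biallelic ratios were 56.8 for Dlk1, 16.2 for Meg3 and 478 for Rtl1.

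Compared per kilobase of annotated exon (5657 bases for Dlk1, 18089 for Meg3, 6358 for Rtl1 and 2030 for Dio3 in GENCODE M21), the order of levels changed with age. At E13.5 mean Dlk1 was highest, at 17.4 ± 8.79 RPM per kb in biallelic and 15.1 ± 2.18 in wild type tongues (SD, n = 3 each). Meg3 followed with 5.56 ± 1.21 and 5.34 ± 3.24 RPM per kb and Dio3 with 3.97 ± 3.19 and 1.91 ± 0.557 RPM per kb, in biallelic and wild type tongues, and these neighbours overlapped in their spread. At P0 Meg3 led with 77.3 ± 1.74 RPM per kb in biallelic and 73.1 ± 8.59 in wild type tongues, ahead of Dlk1 with 48.3 ± 4.42 and 40.2 ± 3.10 and of Rtl1 with 14.5 ± 0.504 and 14.5 ± 3.99. At P20 Meg3 led again, with 5.63 ± 1.63 RPM per kb in biallelic and 3.53 ± 0.407 in wild type tongues, and Dlk1 had 1.19 ± 0.621 and 0.297 ± 0.0240. The exon lengths join the exons of all annotated transcripts, and Meg3 has many, so its level per length may be set too low.

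Muscle markers moved with these stages. The 8 skeletal muscle genes summed to 305 to 617 RPM in biallelic and 345 to 634 RPM in wild type tongues at E13.5, 9154 to 10257 and 9336 to 12634 RPM at P0, and 3314 to 5915 and 3695 to 5597 RPM at P20. In these whole tongues fewer cells of a type and less RNA per cell cannot be told apart, and the part of muscle content in the stage changes was not tested.

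By genotype, none of the cluster's genes was called in any table: 0 of 4 in E13.5 tongues, 0 of 4 in P0 tongues, 0 of 2 in P20 tongues and 0 of 2 in chondrocytes. Over all genes tested 0% were called in E13.5 tongues, 0.016% in P0 tongues, 0% in P20 tongues and 0% in chondrocytes, so calls were rare everywhere. At an unadjusted p under 0.05 limma placed 386 of 11869, 412 of 12489, 286 of 12693 and 1298 of 11127 genes in these 4 tables. After adjustment, voom on whole reads called 0 genes in each. Within these 4 tables, the smallest unadjusted limma p of the cluster was that of Dlk1 at P20.

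Dlk1 at P20 was the clearest genotype difference of the cluster. All 3 biallelic tongues were above all 3 wild type tongues, with 334, 214 and 563 reads in biallelic and 71, 106 and 76 reads in wild type tongues. The means were 6.75 ± 3.51 RPM in biallelic and 1.68 ± 0.136 RPM in wild type tongues (SD, n = 3 each). The log2 difference was 1.88 (SE 0.34), with an unadjusted limma p of 0.000894 that became 1.0 on adjustment over 12693 genes. Without biallelic library 3, which stood apart and had the most Dlk1 reads, the difference was 1.49 (limma adjusted p = 0.490). A gap between non-overlapping groups was not rare at this stage, where 6.89% of all genes tested showed one.

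At the other stages Dlk1 differed less. The difference was 0.10 at E13.5 (SE 0.28, adjusted p = 0.992) and -0.29 without biallelic library 3. At P0 it was 0.26 (SE 0.11, unadjusted limma p = 0.0398, adjusted p = 1.0), with overlapping groups. The genotype difference at P20 exceeded that at P0 by 1.62 (SE 0.43, adjusted p = 1.0) and that at E13.5 by 1.78 (SE 0.43, adjusted p = 0.882). Of all genes, 0% were called in these 2 contrasts and 0% in P0 minus E13.5, where Dlk1 had 0.17 (adjusted p = 0.979). At an unadjusted p under 0.05, limma placed 185, 571 and 766 of 13663 genes in the 3 contrasts, and voom called 0 genes in each. Averaged over the tongue stages, Dlk1 differed by 0.75 (SE 0.18, adjusted p = 0.526), where 0.022% of genes were called. The difference in stage dependence was thus not past the threshold either.

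Meg3 also separated the groups at P20, less widely. It averaged 102 ± 29.4 RPM in biallelic and 63.9 ± 7.37 RPM in wild type tongues (SD, n = 3 each), a log2 difference of 0.64 (SE 0.21, adjusted p = 1.0). The lowest biallelic tongue, at 73.8 RPM, lay just above the highest wild type tongue, at 71.9 RPM. Without biallelic library 3 the difference was 0.43 (adjusted p = 0.999). At E13.5 Meg3 differed by 0.25 and at P0 by 0.09, with overlapping groups and adjusted p values of 0.992 and 1.0. The 2 genes tested at P20 were thus both among the non-overlapping ones, which made up 6.89% of all genes tested there. Rtl1 and Dio3, not tested at P20, overlapped between the genotypes at that stage. At E13.5 and at P0, 0 of 4 and 0 of 4 were non-overlapping, where 10.1% and 8.90% of all genes did not overlap.

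Rtl1 had 3.79 ± 1.45 RPM in biallelic and 2.54 ± 0.731 RPM in wild type tongues at E13.5, a difference of 0.56 (SE 0.34, adjusted p = 0.992) that was 0.26 without biallelic library 3. At P0 the means were 92.4 ± 3.21 and 92.1 ± 25.4 RPM in biallelic and wild type tongues, a difference of 0.04 (adjusted p = 1.0) whose sign turned to -0.15 without wild type library 3. Dio3 had 8.05 ± 6.47 RPM in biallelic and 3.88 ± 1.13 RPM in wild type tongues at E13.5, a difference of 0.79 (SE 0.48, adjusted p = 0.992) that was 0.17 without biallelic library 3. At P0 it had 1.33 ± 0.196 RPM in biallelic and 1.63 ± 0.421 RPM in wild type tongues, a difference of -0.27 (adjusted p = 1.0). Each of these means is over 3 libraries with its SD. Both genes missed the filter at P20 and were not tested there.

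**Figure D2:**
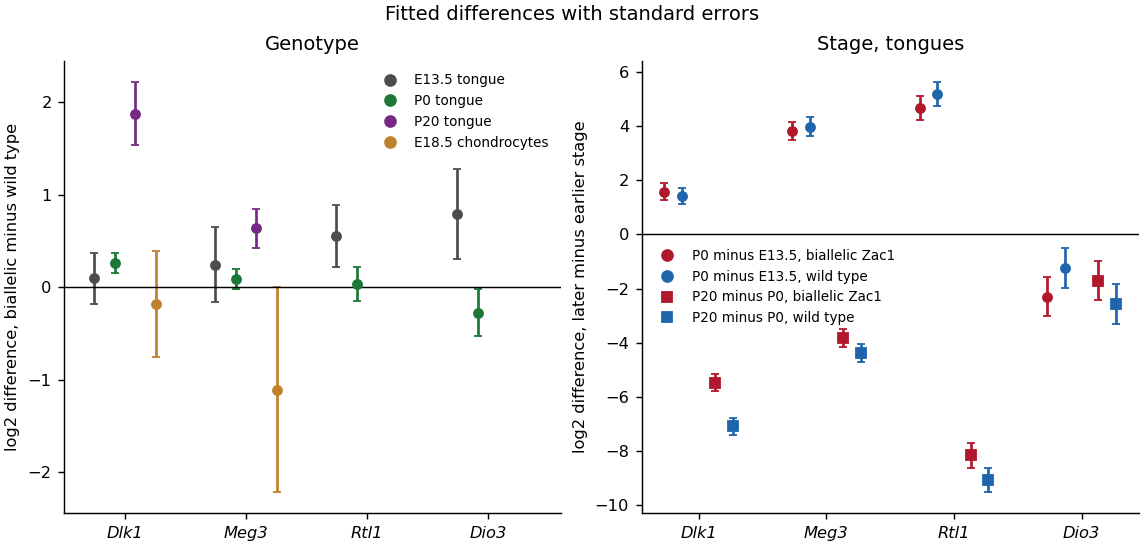
Fitted log2 differences with standard errors: biallelic minus wild type in each table (left panel) and later minus earlier tongue stage in each genotype (right panel). Genotype differences run from -1.11 for Meg3 in chondrocytes to 1.88 for Dlk1 at P20, while the stage differences reach -8.16 and -9.07 for Rtl1.

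Dlk1 and Meg3, read from opposite parental chromosomes, were also set against each other within each library as log2 Dlk1 minus log2 Meg3. This balance was -0.12 ± 0.60 in biallelic and 0.03 ± 0.81 in wild type tongues at E13.5, -2.36 ± 0.17 and -2.54 ± 0.11 at P0, and -4.0 ± 0.33 and -5.24 ± 0.05 at P20 (SD, n = 3 each). Within both genotypes it moved toward Meg3 with age. At P20 it ran from -4.29 to -3.64 in biallelic and from -5.30 to -5.21 in wild type tongues, so the groups did not overlap there, while they overlapped at E13.5 and P0. Over the 3 stages the mean genotype difference was 0.42, with a two-sided exact permutation p of 0.116 over 8000 arrangements within stages, of which the smallest p possible is 0.00025. Adjusted over the 2 such tests, in tongues and in chondrocytes, it was 0.232. Without wild type library 1 of E13.5, the library with the lowest Meg3, the difference was 0.57 (exact permutation p = 0.0170), the one alternative run in tongues that went under 0.05. The measure does not depend on library scaling.

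**Figure D3:**
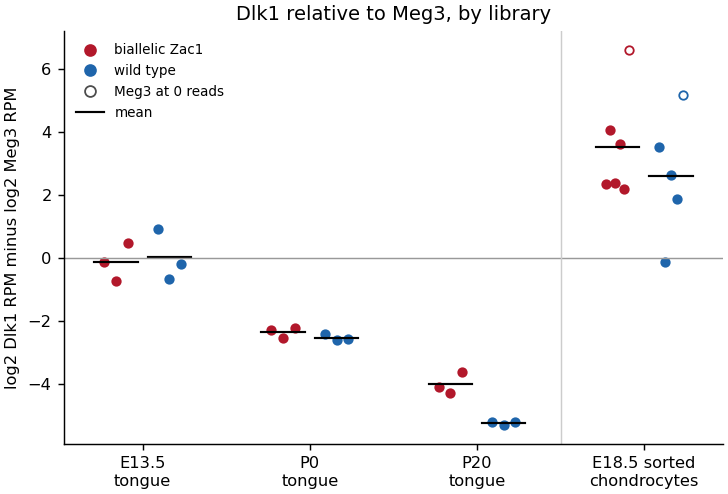
Log2 Dlk1 minus log2 Meg3 in each library, biallelic left of wild type, with a line at the group mean and open circles where Meg3 has 0 reads. The tongue values fall with age, to -4.0 in biallelic and -5.24 in wild type tongues at P20, and the chondrocyte values are mostly above 0.

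The small RNA rows between Dlk1 and Dio3 were counted in the 3 tongue tables. There are 78 such rows, of which 73 lie on the plus strand: 50 that GENCODE calls microRNA, 22 small nucleolar RNAs and the row SNORD112, which has no GENCODE match. The 5 rows on the minus strand had 0 reads, except for 1 read in biallelic library 3 of P0 and 2 reads in biallelic library 1 of P20. All plus strand segments were highest at P0 in both genotypes. As a description, with segments drawn after the values were seen, the 17 rows inside Rian summed to 18.3 ± 1.88 RPM in biallelic and 22.1 ± 2.65 RPM in wild type tongues at E13.5, 40.1 ± 2.76 and 44.8 ± 5.87 RPM at P0, and 2.08 ± 1.04 and 1.44 ± 0.171 RPM at P20 (SD, n = 3 each).

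The 34 rows between Rian and Mirg, a run of microRNA hairpins with some small nucleolar RNAs, summed to 3.78 ± 2.18 RPM in biallelic and 4.46 ± 1.03 RPM in wild type tongues at E13.5, 18 ± 4.62 and 17.2 ± 2.0 RPM at P0, and 0.757 ± 0.307 and 0.503 ± 0.0653 RPM at P20. At E13.5 biallelic library 3 had 1.27 RPM there, against 5.10 and 4.97 RPM in the other biallelic libraries, although Dlk1, Rtl1 and Dio3 were highest in it. The 9 rows inside Mirg summed to 1.0 ± 0.576 RPM in biallelic and 1.35 ± 0.457 RPM in wild type tongues at E13.5, 5.65 ± 1.03 and 5.86 ± 0.350 RPM at P0, and 0.273 ± 0.130 and 0.147 ± 0.0560 RPM at P20. The 7 rows between Meg3 and Rtl1 summed at P0 to 4.63 ± 1.05 RPM in biallelic and 3.55 ± 0.232 RPM in wild type tongues. The 6 rows opposite Rtl1 summed at P0 to 2.87 ± 0.156 RPM in biallelic and 2.62 ± 0.218 RPM in wild type tongues.

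One small nucleolar RNA dominated the Rian segment. The SNORD113 row Gm24895, printed above, had 13.6, 16.9 and 18.3 RPM in biallelic and 16.4, 21.4 and 20.2 RPM in wild type tongues at E13.5, 30.8, 26.5 and 22.7 RPM and 30.7, 38.0 and 26.0 RPM at P0, and 0.944, 0.954 and 2.25 RPM and 0.981, 0.979 and 0.882 RPM at P20. To P0 it rose by 0.71 in biallelic (SE 0.26, adjusted p = 0.0198) and 0.70 in wild type tongues (adjusted p = 0.0220). It fell by 4.39 in biallelic (adjusted p = 4.98e-09) and fell by 5.04 in wild type tongues (adjusted p = 1.27e-09) at P20. Without this row the other 16 rows of Rian summed to 2.06 ± 0.813 RPM in biallelic and 2.76 ± 0.104 RPM in wild type tongues at E13.5 and to 13.4 ± 2.11 and 13.2 ± 0.363 RPM at P0. SNORD113 copies resemble each other, so reads may be shared or lost among them and single rows are uncertain.

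Of the 78 rows, 14 passed a filter on low values, 13 of them at P0 alone, so these had to be higher at P0 and counts of calls among them are no support for a peak there. By genotype 0 of the 14 were called in the tables where they were tested. Mir453, the hairpin row inside Mirg with the most reads, had 0.276 ± 0.0407 RPM in biallelic and 0.269 ± 0.232 RPM in wild type tongues at E13.5, 1.55 ± 0.160 and 1.55 ± 0.0644 RPM at P0, and 0.0977 ± 0.0632 and 0.0610 ± 0.00825 RPM at P20. Mir485, also named by level, had a P0 minus E13.5 difference of 0.45 in biallelic (adjusted p = 0.499) and 1.23 in wild type tongues (adjusted p = 0.0694). The other rows named are Gm24564, Gm23600 and Gm23474 (all SNORD113), Mir1197, Mir323, Mir410 and the row AC152063.2, which GENCODE places at Mir3070b. Their P0 minus E13.5 differences ran from 1.90 for Mir1197 in wild type tongues to 4.98 for Gm23474 in biallelic tongues. In biallelic library 1 of E13.5, Gm23474 had 0.0208 RPM, the value that stands for 0 reads. The size of that difference therefore depends on the value set for 0 reads.

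**Figure D4:**
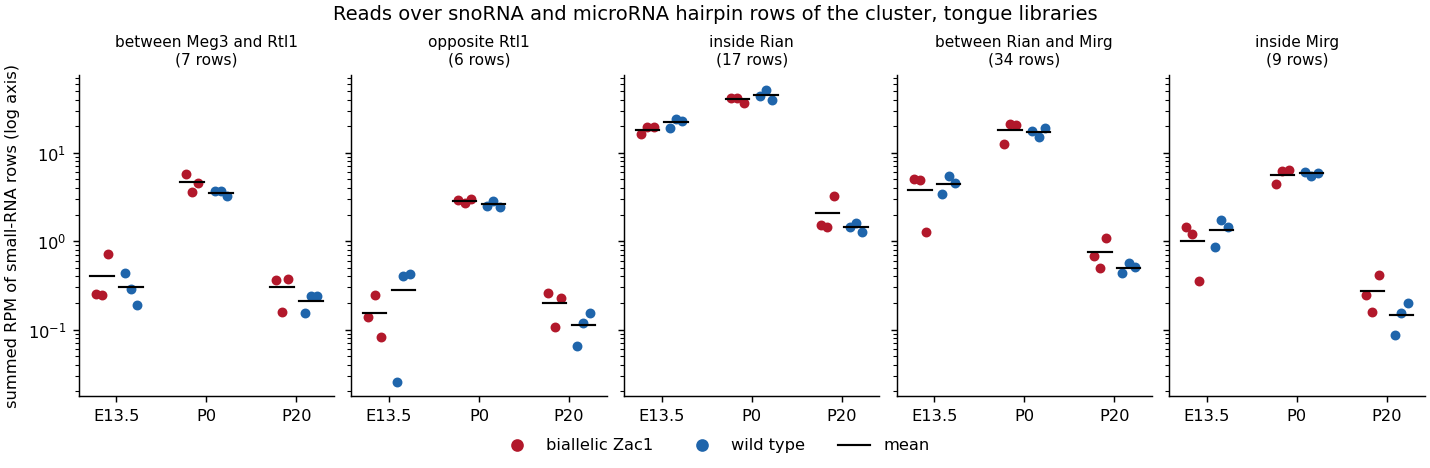
Summed RPM (log axis) of the small RNA rows of 5 segments of the cluster in each tongue library, biallelic left of wild type, with a line at the mean. Every segment is highest at P0, for example 40.1 RPM in biallelic and 44.8 RPM in wild type tongues inside Rian, and lowest or near lowest at P20.

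In the sorted chondrocytes Dlk1 was the one gene of the cluster with reads in every animal. It had 14.5, 12.8, 11.5, 18.8, 54.7 and 10.0 RPM in biallelic animals 1 to 6 and 39.3, 7.42, 70.5, 10.7 and 11.2 RPM in wild type animals 7 to 11. Animals 5, 7 and 9 were high and the other 8 lay between 7.42 and 18.8 RPM. The log2 difference was -0.18 (SE 0.57, adjusted p = 0.901). It was 0.61 (adjusted p = 0.968) without wild type animals 7, 8 and 9, which stood apart, -0.52 without biallelic animal 5, 0.08 without animal 7, 0.29 without animal 9 and 0.05 with median centring.

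Meg3 was scarce in the chondrocytes and the remaining genes were near or at 0. It had 2.82, 0.760, 2.19, 1.52 and 12 RPM in biallelic animals 1 to 5 and 0 reads in animal 6, and 3.44, 8.11, 11.4 and 2.92 RPM in wild type animals 7 to 10 and 0 reads in animal 11. Its difference was -1.11 (SE 1.11, adjusted p = 0.664), from -1.94 to -0.34 on leaving out 1 animal, and 0.61 without wild type animals 7, 8 and 9. Rtl1 had 11 reads in biallelic animal 1, 3 reads in wild type animal 9 and 0 reads in the other 9. Dio3 had 0 reads in all 11 animals, which allows up to 0.191 RPM in the deepest and 1.02 RPM in the shallowest library, counting error only. Neither Dlk1 nor Meg3 separated the groups, and 0.872% of genes tested did. The balance of Dlk1 over Meg3 was 3.54 ± 1.69 in biallelic (SD, n = 6) and 2.61 ± 1.97 in wild type animals (SD, n = 5), a difference of 0.93 (exact permutation p = 0.418 over 462 arrangements), with 0.9 reads standing for 0, which ran from 0.24 to 1.57 on leaving out 1 animal and was 0.0076 without wild type animals 7, 8 and 9. These polyadenylated RNA libraries differ in kind from the tongue libraries, so levels are not compared between them.

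The markers of these cells partly went against the chondrocyte label. The 8 leukocyte markers summed to 2165 to 3142 RPM in biallelic and 2671 to 3217 RPM in wild type animals, with a median of 418 and 288 RPM for Ptprc, the pan-leukocyte antigen CD45. The 8 chondrocyte markers summed to 330 to 927 RPM in biallelic and 191 to 545 RPM in wild type animals, with medians of 538 and 301 RPM for Col2a1, the main cartilage collagen. Cd24a and Cd200, the gate, had medians of 48.9 and 18.1 RPM in biallelic and 43.7 and 12.2 RPM in wild type animals. Ihh and Col10a1, which define prehypertrophic and hypertrophic chondrocytes, had medians of 0.0775 and 0.234 RPM in biallelic and 0.130 and 0.306 RPM in wild type animals, near the value that stands for 0 reads. Spp1 of the same list had medians of 2166 RPM in biallelic and 1182 RPM in wild type animals. Fibroblast markers summed to 1075 RPM in biallelic animal 5 and to 499.5 and 1278 RPM in wild type animals 7 and 9, the 3 animals with the most Dlk1. They summed to 86.9 to 174 RPM in the other biallelic and 119 to 253 RPM in the other wild type animals. The part of these cells in the Dlk1 values was not tested.

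The nearest tested genes outside the cluster were taken leaving out predicted genes, clone and Rik names and small RNAs. Of these, 1 of 6 was called lower at P20 than at P0 in both genotypes. That share is near the 17.3% of all genes called lower in biallelic and 14.9% in wild type tongues. Wars, Wdr25 and Begain lie before Dlk1 and Ppp2r5c, Dync1h1 and Hsp90aa1 after Dio3. None was called by genotype. Begain, 385 kb before Dlk1, at P20 relative to P0 fell by 2.09 in biallelic (SE 0.27, adjusted p = 1.53e-05) and fell by 2.14 in wild type tongues (adjusted p = 1.42e-05). It did not rise before birth, at -0.10 in biallelic (adjusted p = 0.752) and 0.10 in wild type tongues (adjusted p = 0.740). Its genotype difference averaged over the stages was 0.49 (SE 0.16, adjusted p = 1.0). The other 5 had P20 minus P0 differences between -0.00 and 0.87, and Ppp2r5c, 205 kb after Dio3, had 0.06 in biallelic and 0.11 in wild type tongues.

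The genes whose log2 levels over the 18 tongue libraries were most like Dlk1 were Peg3 (Pearson r = 0.984), Grb10 (r = 0.981) and Nespas (r = 0.974). The genes most like Meg3 were Myh8 (r = 0.980), the perinatal myosin heavy chain, Mpp3 (r = 0.979) and Enox1 (r = 0.977). Peg3 had a mean of 322 RPM at E13.5, 627 RPM at P0 and 91.6 RPM at P20, and Myh8 32.3, 3824 and 27.3 RPM. The same measure, looked up after the values were seen, gave Zim1 (r = 0.988), Igf2 (r = 0.979) and Sgce (r = 0.979) for Rtl1 and Mmd (r = 0.965) for Dio3. The 18 libraries share 3 stages and 2 genotypes, so most of each r is the course over stages.

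Other imprinted genes of the fetal growth network were mostly lower at P20 than at P0. Of 20 tested, 0 were called higher and 19 lower from P0 to P20 in both genotypes, with a median of -2.64 in biallelic and -3.07 in wild type tongues, against 0.18 and 0.22 over all genes, of which 17.3% in biallelic and 14.9% in wild type tongues were called lower. Snrpn was the exception, at 0.34 and 0.31, and was looked up after its value was seen. From E13.5 to P0, 9 rose and 6 fell in both genotypes. By genotype, Plagl1 itself was the one member called, at P0 and in the average. With Plagl1 included, 15 of 17 tested at P20 had a positive difference (median 0.19, against -0.02 over all genes). In the average 17 of 20 did (median 0.12, against -0.01). At E13.5 13 were positive and 7 negative, and at P0 16 and 4. In chondrocytes 4 of 16 were positive (median -0.29, against -0.11). An upward lean at P20 was thus not particular to Dlk1 and Meg3.

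Dlk1 belongs to the Notch family, and of 19 Notch pathway genes tested, 4 rose and 7 fell from E13.5 to P0 in biallelic tongues and 5 rose and 9 fell in wild type tongues. From P0 to P20, 8 rose and 0 fell in biallelic tongues and 8 rose and 1 fell in wild type tongues. Over all genes 39.7% rose and 37.6% fell from E13.5 to P0 in biallelic and 37.9% rose and 39.9% fell in wild type tongues, and 29.9% rose and 17.3% fell from P0 to P20 in biallelic and 31.7% rose and 14.9% fell in wild type tongues. The Notch counts, and those of the lists that follow, are read against these shares. By genotype 0 of the Notch genes were called. Lfng, which modifies Notch receptors, had the smallest p of the list, at 0.44 in P0 tongues (SE 0.16, adjusted p = 1.0).

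Dio3 inactivates the hormone that the thyroid hormone genes handle. Of 11 such genes tested, 10 rose and 0 fell from E13.5 to P0 in both genotypes, with a median of 2.33 in biallelic and 2.54 in wild type tongues. Chosen after its values were seen, Dio2, the activating deiodinase, rose by 2.89 in biallelic (adjusted p = 9.26e-09) and 2.57 in wild type tongues (adjusted p = 3.59e-08), the step in which Dio3 had -2.30 and -1.24. From P0 to P20, 3 rose and 3 fell in biallelic and 3 rose and 4 fell in wild type tongues. By genotype 0 were called, and Klf9, a gene induced by thyroid hormone, had the smallest p, at -1.88 in chondrocytes (SE 0.62, adjusted p = 0.423).

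Of 8 adipocyte differentiation genes tested, 5 rose and 2 fell from E13.5 to P0 in both genotypes, and from P0 to P20 3 rose and 1 fell in biallelic and 3 rose and 0 fell in wild type tongues. None was called by genotype. At P20, where Dlk1 differed most, 0% of all genes tested were called, so the lack of calls there says nothing about this list. Of its 7 genes tested at P20, 4 had a positive and 3 a negative difference. Their median was 0.22, against -0.02 over all genes. Cebpb had the smallest p, at -2.05 in chondrocytes (SE 0.49, adjusted p = 0.423). Of 10 genes of imprint maintenance tested, 1 rose and 6 fell from E13.5 to P0 in biallelic tongues and 1 rose and 7 fell in wild type tongues. From P0 to P20, 2 rose and 5 fell in biallelic and 1 rose and 4 fell in wild type tongues. None was called by genotype, and Aff3 had the smallest p, at 0.48 in P0 tongues (SE 0.15, adjusted p = 1.0).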

How the data were processed

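RNA was sequenced from whole tongues (ribosomal RNA removed, strand-specific libraries) and from sorted E18.5 costal chondrocytes (polyadenylated RNA, SMART-seq2), per the labels' protocols. The tools named in the submitters' processing notes are TopHat2 2.1.0 and Trim Galore 0.4.2 for tongues and HISAT2 for chondrocytes, with GRCm38 as the genome. Which program counted the reads, and with which strand setting, the sources used here do not say. The authors deposited 4 tables of log2 RPM per gene, in which 0.9 reads stands for 0 reads. Within 0.05 of a read, 100% of values were whole multiples of 1 read, which gave each library's read total. For some biallelic chondrocyte animals the labels list more than 1 library, and in all 33 labelled samples correspond to 29 columns, 1 per animal, each used once. No 2 libraries agreed within sampling noise (smallest chi-square per degree of freedom 7.19).

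A gene was tested if it reached 1 RPM in 3 libraries of a tongue table, in 5 chondrocyte animals or in 3 of all 18 tongue libraries. Tests were made with limma 3.58.1 (trend) in R 4.3.3, with Benjamini-Hochberg adjustment and a threshold of 0.05. Stage and averaged contrasts come from 1 fit of the 18 libraries, with a term for each group. The fits were also run on simulated counts with a fixed spread and no library that stood apart. That run does not show how they handle the spread between the real libraries. Samples were grouped by their labels, which call the tongue libraries biological replicates without naming animals or litters, so p-values measure the spread between these samples.

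The members and the gene lists were chosen with earlier results of these data known. The text names the members, Plagl1 and up to 10 other rows of the interval by mean level. It also names the 3 tested genes nearest on each side, leaving out predicted genes, clone and Rik names and small RNAs. Named too are the genes most like Dlk1 and Meg3, and from each list the members called by genotype or else the one of smallest p. Other genes are said to have been looked up after their values were seen. Alternatives were median centring, a 5 RPM filter or none, log2(RPM + 1), voom on whole reads, a replicate block and leaving out libraries. Python 3.11.15 and RefSeq and GENCODE annotation gave positions, lengths and sequences. Intervals and floors cover counting error only.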

Additional observations from a re-analysis of the deposited data

Results flagged for a closer look

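Dlk1 in biallelic chondrocyte animal 5 lay far from the other animals of its group, at a log2 RPM of 5.77. Its gap to the nearest animal was 0.629 of the group's whole range, against a 95% limit of 0.625 for 6 values. Of 4 groups tested 1 was picked out in this way, and chance picks out about 1 in 20 groups. Without animal 5 Dlk1 averaged 13.52 ± 3.37 RPM in biallelic (SD, n = 5) and 27.8 ± 27.1 RPM in wild type animals (SD, n = 5), and the log2 difference was -0.52 (limma adjusted p = 0.641). The same animal had the highest summed fibroblast markers of its group, 1075 RPM, and the highest Meg3, 12 RPM.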

How the results depend on the processing

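Of 709 values of the cluster's genes under the alternatives, 316 equal the reported value, many because the library left out is not in the contrast or only the filter changed. Of the other 393, 376 kept their direction and their side of the threshold. Over all 709, 11 turned their sign, 6 passed the threshold and 2 lost it. At P0 the genotype contrast called 2 genes, 1 with median centring, 1 without a filter, 0 with voom, 0 with the replicate block and 0 to 4 on leaving out a library. The P20 minus P0 difference of genotype effects called 0 genes, 1 with median centring and 0 to 1 on leaving out a library. The differences P0 minus E13.5 and P20 minus E13.5 called 0 to 8 genes each on leaving out a library, and the averaged effect 3 to 9, or 2 to 4 under the other alternatives. Without a filter 19861 genes were called from E13.5 to P0 in biallelic and 20373 in wild type tongues, and 15070 from P0 to P20 in wild type tongues, against 10554, 10627 and 6366, while 6437 were called from P0 to P20 in biallelic tongues, against 6446. Signs turned for Dlk1 in chondrocytes (0.046 with median centring, 0.61 without animals 7, 8 and 9, and -0.52 to 0.29 on leaving out 1 animal), for Meg3 in chondrocytes (0.61 without animals 7, 8 and 9), and, on leaving out 1 library, for Dlk1 at E13.5 (-0.29 to 0.30), Meg3 at E13.5 (-0.29 to 0.70), Rtl1 at P0 (-0.15 to 0.25), the Dlk1 difference P0 minus E13.5 (-0.032 to 0.55) and averaged Dio3 (-0.011 to 0.57). The balance difference in tongues ran from 0.31 to 0.57 on leaving out a library and was 0.28 with log2(RPM + 1). The cause of these changes was not tested. Centring gave a median of all chondrocyte genes of 0.12, against -0.11 without it. Depth limits Rtl1 and Dio3 at P20 and everything but Dlk1 in chondrocytes. Same-numbered libraries correlated in their deviations at 0.159, 0.0424 and 0.137 at E13.5, where the other pairs ran from -0.138 to 0.055. They correlated at -0.343, -0.486 and 0.362 at P0 and at -0.314, -0.288 and -0.647 at P20. With 3 libraries per group, these values cannot tell whether replicate numbers pair the samples. The replicate block changed no call of a member and took the P0 count to 0.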
